A study of Mus musculus with 8 samples.

Results

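The genes described here encode the machinery that builds branched actin in neutrophils: 7 subunits of the Arp2/3 complex (*Actr2*, *Actr3*, *Arpc1a*, *Arpc1b*, *Arpc3*, *Arpc4* and *Arpc5*) and 3 proteins that act on it (*Was*, *Wasf2* and *Hcls1*). They were chosen by symbol, through the GENCODE M21 annotation, with no measured value in the rule. All 10 were found among the 55414 gene identifiers of the count data, and all 10 passed the filter on low counts that left 16778 genes to be tested. *Arpc2*, another subunit, was not analysed here. Neutrophils were sorted from the spleens of 10-week-old FVB mice as CD45+ CD11b+ Ly6G+ cells, after enrichment for CD11b, and their total RNA was depleted of ribosomal RNA and sequenced. The compared groups were 4 WT libraries and 4 libraries of *Cxcr2-/-* mice, which lack this chemokine receptor in every cell, so that a direct effect on neutrophils and one through other cells cannot be told apart. The *Cxcr2-/-* line had been backcrossed to FVB, and mice of both groups were housed under the same specified pathogen status. The comparison asked how the RNA of spleen neutrophils differs when the receptor is absent.

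The Arp2/3 complex binds the side of an actin filament and starts a new filament there, which gives the branched network that pushes the membrane forward at the front of a crawling or engulfing cell. On its own it is barely active: it is switched on by nucleation promoting factors, among them WASP (*Was*), which responds to the small GTPase Cdc42, and WAVE2 (*Wasf2*), which responds to Rac. Loss of WASP or of ARPC1B in people causes immune deficiencies in which leukocyte migration is impaired.

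The libraries held 34220182 to 46233555 counts on genes, so that even the least abundant of the 10 genes had 2539 counts or more in every library. *Cxcr2* itself fell from 1956 ± 221 CPM (counts scaled to a common library size with TMM factors, mean ± SD, n = 4) in WT to 17.1 ± 3.46 CPM in *Cxcr2-/-* libraries, as labelled. The 6 neutrophil marker genes together reached 27233 to 39935 CPM in WT and 62070 to 75807 CPM in *Cxcr2-/-* libraries, with 4 higher, among them *S100a8* and *S100a9*, which make up most of the sum, and *Csf3r* lower (6960 ± 462 to 3334 ± 147 CPM). The 4 early granule genes, which are made by immature neutrophils, summed to 2.40 to 12.5 CPM in WT and 53.4 to 351 CPM in *Cxcr2-/-* libraries. The 7 B cell markers summed to 65.4 to 148 CPM in WT and 29.1 to 65.8 CPM in *Cxcr2-/-* libraries, and the 8 monocyte and macrophage markers to 704 to 824 CPM and 850 to 978 CPM, with 2 of these higher (*Ly6c2* and *Ccr2*) and 2 lower (*Csf1r* and *Adgre1*). Read pairs that the counting assigned to no gene were 31.4% to 41.5% of the total in WT and 26.7% to 31.9% in *Cxcr2-/-* libraries. Such pairs need not lie outside genes. Of all genes tested, 23.7% were higher and 21.0% lower in *Cxcr2-/-* neutrophils (44.7% in either direction) at an adjusted p under 0.05, by the quasi-likelihood test of edgeR after adjustment by the Benjamini-Hochberg method, and 15.7% passed in each direction with a change of at least 1.5-fold.

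In *Cxcr2-/-* neutrophils 4 of the 10 genes rose (*Arpc4*, *Actr3*, *Arpc3* and *Arpc1b*), none fell, and 6 did not pass the test, beside the 23.7% of all genes that were higher. All 4 are subunits of the complex (4 of 7), and none of the 3 activators passed. None of the 4 calls held with the share of read pairs on no gene as a covariate, a share that itself differed with genotype. With a score of non-neutrophil markers as covariate 3 of the 4 passed, while the part of the early granule RNA was not tested. This score also differed in range, from 2.69 to 3.31 in WT and from 2.29 to 3.09 in *Cxcr2-/-* libraries. It includes *Ly6c2* and *Csf1r*, which changed in opposite directions, and was not shown to measure other cells alone. The changes were small: only *Arpc4* passed with at least 1.5-fold, beside 15.7% of all genes. *Arpc4* did so narrowly (1.506-fold), and was below 1.5-fold with DESeq2 (log2 fold change 0.571) and with each of the other scalings. The median log2 fold change was 0.27 over the 10 genes, 0.36 over the 7 subunits and 0.11 over the 3 activators, beside 0.01 over all genes tested. The fold change was positive for 9 of the 10. The WT and *Cxcr2-/-* libraries did not overlap for 3 genes, all higher in *Cxcr2-/-*, beside 22.5% of all genes without overlap in that direction and 41.6% in either direction. In bulk RNA, a larger part of cells that make a transcript and more of it per cell cannot be told apart. Whether subunits and activators differed from each other was not tested.

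**Figure D1:**
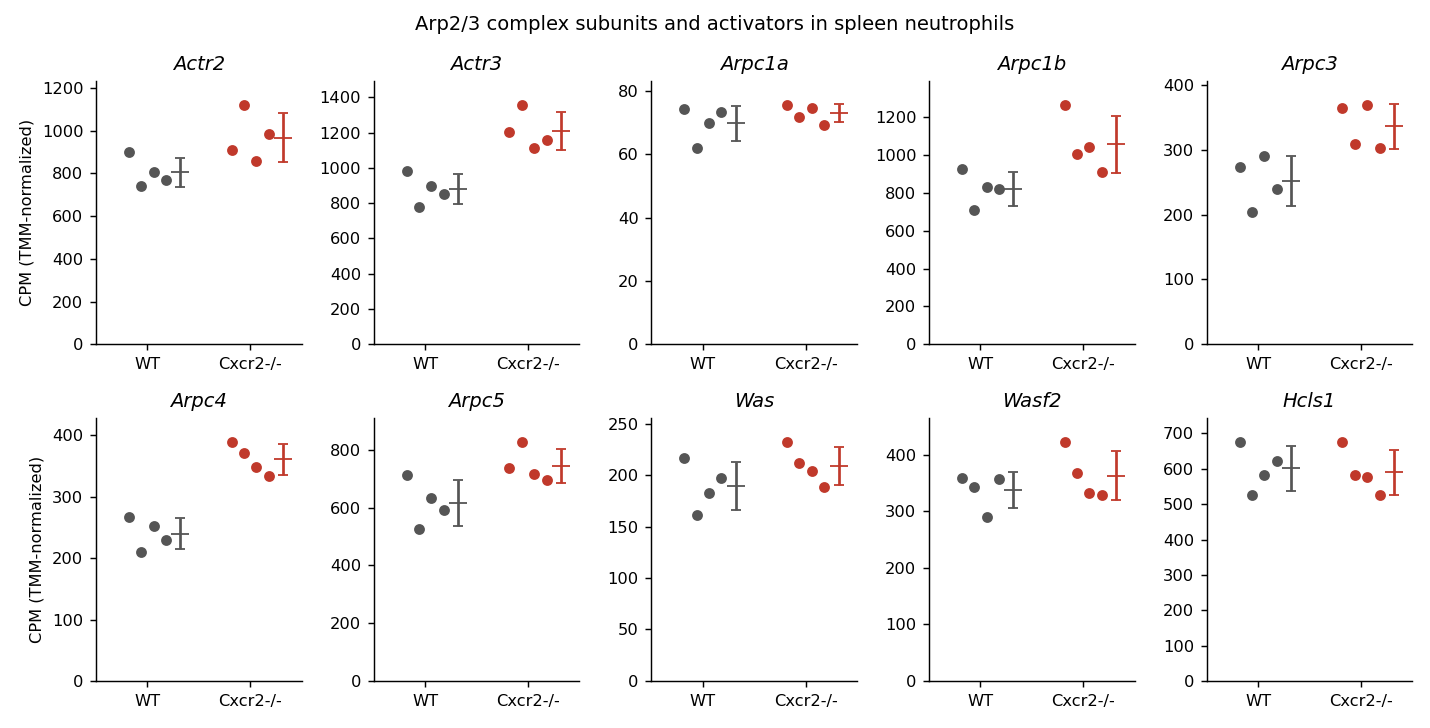
Expression of each gene in CPM (TMM-normalized, vertical axes from 0) in the 4 WT libraries (grey) and the 4 *Cxcr2-/-* libraries (red), with one point per library in order of replicate number and the mean with its SD to the right. The groups do not overlap for *Actr3*, *Arpc3* and *Arpc4*, and overlap for the other 7 genes.

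*Arpc4* (ENSMUSG00000079426, GRCm38 chr6:113378115-113390448, plus strand), a core subunit that pairs with ARPC2 to hold the complex on the mother filament, changed most. It was at 267, 210, 253 and 229 CPM in WT replicates 1 to 4 and at 390, 372, 349 and 333 CPM in *Cxcr2-/-* replicates 1 to 4. Every *Cxcr2-/-* library was above every WT library. Its fold change was 1.51 (95% interval 1.29 to 1.76; log2 0.59 ± 0.10 SE, adjusted p = 0.0005). Some exon bases of *Arpc4* (12.2%) overlap *Ttll3*, a tubulin-modifying enzyme gene on the same strand, and 8.48% of the 100-base stretches of its main transcript also occur in transcripts of that gene. *Ttll3* did not pass the test, with 64.3 ± 8.37 CPM in the WT group and 54.9 ± 7.67 CPM in the other (SD, n = 4).

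*Actr3* (chr1:125392905-125435727, minus strand) encodes ARP3, one of the actin-related proteins that form the seed of the new filament. It was at 983, 780, 896 and 850 CPM in the WT libraries and at 1205, 1356, 1111 and 1156 CPM in the *Cxcr2-/-* libraries, again without overlap. The fold change was 1.38 (1.17 to 1.62; log2 0.46 ± 0.11, adjusted p = 0.0046). *Actr2* (chr11:20062304-20112913, minus strand), for its partner ARP2, was at 900, 741, 809 and 771 CPM in WT and at 909, 1121, 857 and 984 CPM in *Cxcr2-/-* libraries. These groups overlapped, since WT replicate 1 was above *Cxcr2-/-* replicate 3. The log2 fold change of *Actr2* was 0.26 ± 0.11 with an adjusted p of 0.0757. Of the 100-base stretches of *Actr3*, 22.4% are shared with its processed copies *Gm8822* and *Gm15899*. The copies themselves took few reads, with a mean of 0.619 ± 0.143 CPM for *Gm8822* in WT against 1.05 ± 0.225 in *Cxcr2-/-* (adjusted p = 0.0513) and *Gm15899* at 0.0804 CPM or less in every library.

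*Arpc3* (chr5:122391878-122414184, plus strand), a small subunit that contacts ARP3, was at 274, 204, 290 and 239 CPM in WT and at 364, 309, 369 and 303 CPM in *Cxcr2-/-* libraries. The lowest *Cxcr2-/-* library lay above the highest WT library by a small margin. Its fold change was 1.34 (1.11 to 1.61; log2 0.42 ± 0.12, adjusted p = 0.0148). *Arpc5* (chr1:152766542-152775597, plus strand), a subunit that links to ARP2, was at 714, 526, 635 and 592 CPM in WT and at 736, 829, 717 and 698 CPM in *Cxcr2-/-* libraries. WT replicate 1 lay within the range of the *Cxcr2-/-* libraries. The log2 fold change of *Arpc5* was 0.27 ± 0.11 (adjusted p = 0.068).

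*Arpc1b* and *Arpc1a* lie next to each other on chromosome 5 (chr5:145114215-145130705 and chr5:145083830-145108761, both on the plus strand) and encode alternative forms of one subunit, of which ARPC1B is the form typical of blood cells. *Arpc1b* was at 927, 707, 829 and 818 CPM in WT and at 1264, 1007, 1040 and 912 CPM in *Cxcr2-/-* libraries, where replicate 4 fell below WT replicate 1. It rose 1.29-fold (1.07 to 1.55; log2 0.36 ± 0.13, adjusted p = 0.0311). *Arpc1a* was at 74.3, 62.1, 69.8 and 73.4 CPM in WT and at 75.6, 72.0, 74.8 and 69.4 CPM in *Cxcr2-/-* libraries. Its groups overlapped almost wholly, with a log2 fold change of 0.06 (95% interval -0.12 to 0.25, adjusted p = 0.584). Exons of *Pdap1* cover 18.2% of the exon bases of *Arpc1b* on the opposite strand, and the strand setting of the counting is not given in the sources used here. *Gm5637*, a copy that shares 3.46% of the 100-base stretches of *Arpc1b*, was at 0.332 CPM or less in every library.

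*Was* (chrX:8081453-8090498, minus strand), the gene of WASP, was at 217, 161, 183 and 197 CPM in WT and at 233, 212, 205 and 188 CPM in *Cxcr2-/-* libraries. The groups overlapped, and the log2 fold change was 0.14 (95% interval -0.09 to 0.38, adjusted p = 0.310). *Was* is X-linked, and in all 8 libraries *Xist* was at 239 to 417 CPM with 3 or fewer counts on Y-linked genes. *Wasf2* (chr4:133130505-133199756, plus strand), the gene of WAVE2, was at 359, 344, 291 and 357 CPM in WT and at 424, 368, 333 and 329 CPM in *Cxcr2-/-* libraries. Only *Cxcr2-/-* replicates 1 and 2 lay above all WT libraries, and the log2 fold change was 0.11 (-0.13 to 0.35, adjusted p = 0.466). *Hcls1* (chr16:36934983-36963212, plus strand) encodes HS1, the leukocyte relative of cortactin, which binds the complex at branches and stabilises them. It was at 677, 526, 584 and 622 CPM in WT and at 676, 582, 576 and 525 CPM in *Cxcr2-/-* libraries, nearly the same range. Its log2 fold change was -0.03 (-0.27 to 0.21, adjusted p = 0.848), so that a rise as large as that of *Arpc4* lies outside the interval of *Hcls1*.

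**Figure D2:**
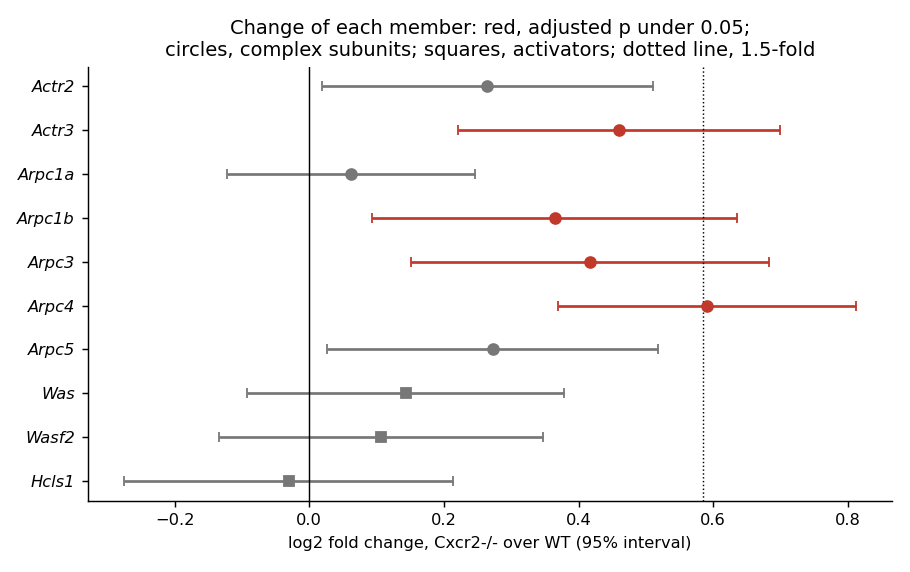
Log2 fold change of *Cxcr2-/-* over WT libraries for each gene (horizontal axis) with its 95% interval, circles for subunits and squares for activators, red where the adjusted p was under 0.05. The largest value is that of *Arpc4* at 0.59, near the dotted line of 1.5-fold, and the intervals of *Arpc1a*, *Was*, *Wasf2* and *Hcls1* include 0.

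The sequence just before the start of each gene was read from RefSeq (GRCm38.p6), where all 10 genes had an entry. The sequences of *Arpc4* (chr6:113377863-113378112, plus strand), *Actr3* (chr1:125435728-125435977, minus strand) and *Arpc3* (chr5:122391628-122391877, plus strand) are shown because these are the genes whose groups do not overlap, and that of *Hcls1* (chr16:36934733-36934982, plus strand) because its level differed least. Each is the run of 250 bases that ends at or just before the transcription start, written 5′ to 3′ in the direction of the gene. Capitals mark GGAAGT, a sequence found in sites that ETS family factors bind. Which factor, if any, binds here was not tested.
Arpc4: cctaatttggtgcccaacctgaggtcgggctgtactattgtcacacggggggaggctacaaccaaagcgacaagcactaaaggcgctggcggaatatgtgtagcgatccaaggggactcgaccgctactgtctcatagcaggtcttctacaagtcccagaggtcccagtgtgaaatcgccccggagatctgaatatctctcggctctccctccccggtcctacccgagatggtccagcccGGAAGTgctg
Actr3: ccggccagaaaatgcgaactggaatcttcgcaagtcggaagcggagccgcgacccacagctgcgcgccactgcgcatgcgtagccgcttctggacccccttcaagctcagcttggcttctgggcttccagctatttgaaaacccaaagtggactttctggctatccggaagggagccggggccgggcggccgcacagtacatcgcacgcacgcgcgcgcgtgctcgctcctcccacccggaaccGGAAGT
Arpc3: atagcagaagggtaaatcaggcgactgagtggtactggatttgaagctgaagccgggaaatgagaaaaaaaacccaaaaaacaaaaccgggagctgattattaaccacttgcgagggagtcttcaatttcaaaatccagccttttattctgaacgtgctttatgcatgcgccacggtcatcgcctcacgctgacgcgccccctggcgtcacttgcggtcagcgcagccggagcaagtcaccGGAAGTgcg
Hcls1: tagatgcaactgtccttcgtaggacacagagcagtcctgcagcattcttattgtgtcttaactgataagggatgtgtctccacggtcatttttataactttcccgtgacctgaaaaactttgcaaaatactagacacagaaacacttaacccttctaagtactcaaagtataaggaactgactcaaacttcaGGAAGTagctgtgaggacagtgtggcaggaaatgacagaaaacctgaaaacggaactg

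In *Arpc4*, *Actr3* and *Arpc3* the match lies within a few bases of the gene start, and all 3 extend to CCGGAAGT, while that of *Hcls1* lies farther upstream and does not extend. Searched as GGAAGT or its complement ACTTCC in the 250 bases before the RefSeq start, the motif was found in 7 of the 10 genes (*Actr3*, *Arpc1a*, *Arpc3*, *Arpc4*, *Was*, *Wasf2* and *Hcls1*), in 19.7% of 32851 promoters and in 24.0% of the promoters of 12201 protein-coding genes tested. CCGGAAGT or ACTTCCGG, which contains the shorter motif, was found in 4 genes (*Actr3*, *Arpc1a*, *Arpc3* and *Arpc4*), in 2.88% of all promoters and in 5.90% of those of the protein-coding genes tested. The match of *Arpc1a*, for both motifs, lies between the start that GENCODE gives and that of RefSeq, so that before both starts the shorter motif was in 6 genes and the longer in 3. The promoters of other genes were not counted in windows shortened in this way. *Arpc1b*, which rose, has neither. The GC box GGGCGG (or CCGCCC) was found in 5 of the 10 genes and in 55.6% of the promoters of the protein-coding genes tested, and CCAAT (or ATTGG) in 3 and in 35.3%. These motifs were picked after the sequences had been read, and a match is letters in a window, not a site shown to be bound.

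Levels can be compared between genes only per length of transcript, here as CPM per kilobase of the main transcript. On this scale *Actr3* was highest in both groups, at 342 ± 33.2 in WT and 471 ± 41.7 in *Cxcr2-/-* libraries (SD, n = 4). *Arpc5* followed at 322 ± 41.1 and 389 ± 30.4, which in WT is within the SD of *Actr3*. In WT, *Hcls1* (299 ± 31.6), *Arpc3* (280 ± 42.3) and *Arpc1b* (264 ± 29) came next, each step being smaller than the SD of either neighbour. *Actr2* (222 ± 19) lay below *Arpc1b* by more than either SD. *Arpc4* stood well below them at 106 ± 11 in WT and 159 ± 11 in *Cxcr2-/-* libraries, the lowest of the subunits apart from *Arpc1a*. *Was* (89.6 ± 11.1), *Wasf2* (59.8 ± 5.63) and *Arpc1a* (42.8 ± 3.39) were the lowest in WT and kept these ranks in *Cxcr2-/-* libraries. *Hcls1* ranked 3 of 10 in WT and 5 in *Cxcr2-/-* libraries. The order depends on the length used, since over all annotated exon bases *Arpc5* was highest and *Arpc3* ranked 7 in both groups.

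Within a group, most of the 10 genes shared their highest and lowest library. How many of all genes did so was not counted, so this order need not be particular to the 10. Outside the 10, *Actb*, *Cfl1* and *Cdc42* were also highest in WT replicate 1 and lowest in WT replicate 2 among WT libraries, while *Dock2* was not. WT replicate 2 was the lowest WT library for 9 of the 10 genes and the lowest of all 8 libraries for 8. WT replicate 1 was the highest WT library for 9 genes, and its share of pairs on no gene, 31.4%, lay within the range of the *Cxcr2-/-* libraries, while the other WT libraries had 40.0% to 41.5%. WT replicate 3 had the highest share and was the lowest WT library for 1 gene, and WT replicates 2 and 4 both had 40.0%. The relation of this share to the levels within a group was not tested. Among *Cxcr2-/-* libraries, replicate 1 was highest for 6 genes and had the lowest share of pairs on no gene (26.7%), and replicate 4 was lowest for 8 genes and had the highest share in the group (31.9%). With that share as a covariate none of the 10 genes passed the edgeR test, beside 1597 higher and 1486 lower of all genes (3969 and 3526 without it). The log2 fold change of *Arpc4* was then 0.39 (adjusted p = 0.113) and that of *Arpc1b* 0.05 (adjusted p = 0.887). The share also differed between the genotypes, and the part each has in the rise cannot be told apart in 8 libraries.

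The calls of *Arpc4* and *Actr3* held under the other 18 alternatives, which included DESeq2, other scalings and each library left out in turn. Without WT replicate 2 or without *Cxcr2-/-* replicate 3, 2 of the 10 genes passed in place of 4, and *Arpc3* then had adjusted p values of 0.0517 and 0.0516. Without WT replicate 1, *Actr2* and *Arpc5* passed as well, which gave 6 genes. *Arpc1b* failed in 10 of its 19 alternatives and is the least secure of the 4. *Cxcr2-/-* replicates 3 and 4 held the most early granule RNA, and without both of them 4 genes passed. The remaining *Cxcr2-/-* libraries still held more of it than any WT library (sums of at least 53.4 against at most 12.5 CPM). The part of the early granule RNA was therefore not tested.

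**Figure D3:**
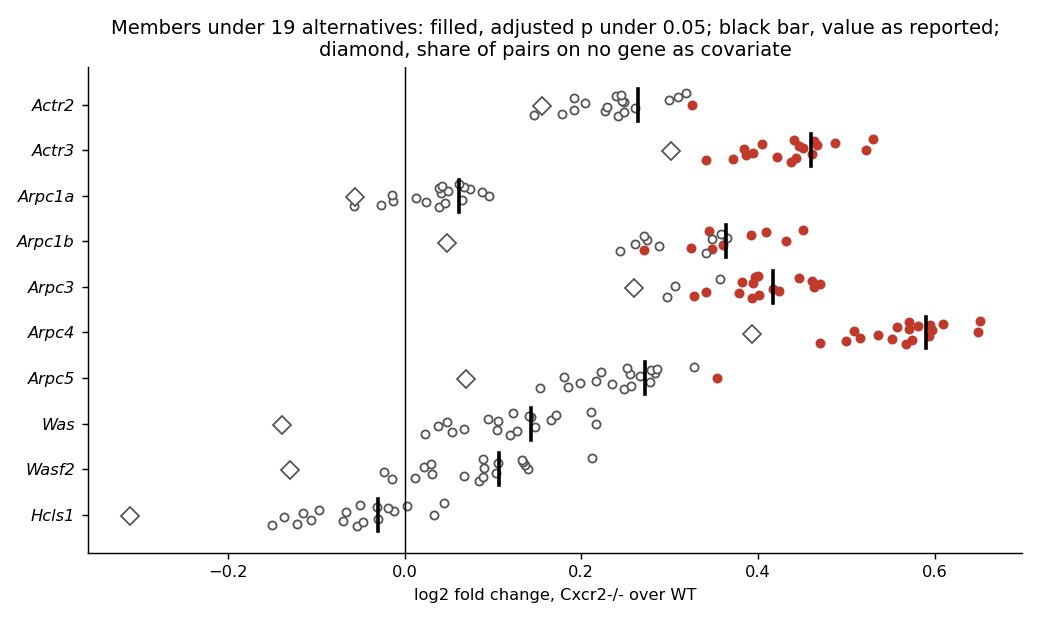
Log2 fold change of each gene (horizontal axis) under 19 alternatives, filled where the adjusted p was under 0.05, with a black bar at the reported value. The diamond, with the share of pairs on no gene as covariate, is open for every gene and lies left of the bar, while the other points of *Arpc4* and *Actr3* are all filled.

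For 5 of the 10 genes a paralog was paired, and the balance within each pair was compared as the log2 ratio of counts in each library, which needs no scaling. For each count on *Arpc1a*, *Arpc1b* had 11.1 to 12.5 counts in WT and 13.1 to 16.7 in *Cxcr2-/-* libraries, without overlap. The mean log2 ratio was 3.55 ± 0.07 in WT and 3.85 ± 0.15 in *Cxcr2-/-* libraries (SD, n = 4), a difference of 0.30 (exact permutation test, two-sided, p = 0.0286, adjusted over 5 pairs 0.0714). *Arpc5* had 32.2 to 37.0 counts for each count on its paralog *Arpc5l* in WT and 37.4 to 42.7 in *Cxcr2-/-* libraries. That difference was 0.21 on the log2 scale (exact permutation test, p = 0.0286, adjusted 0.0714). *Was* had 9.03 to 13.0 counts for each count on *Wasl*, the gene of the broadly expressed N-WASP, in WT and 12.5 to 15.7 in *Cxcr2-/-* libraries, a difference of 0.36 with overlap (exact permutation test, p = 0.0571, adjusted 0.0952). *Arpc5l* (17.8 ± 1.22 CPM in WT, 18.6 ± 1.12 in *Cxcr2-/-*) and *Wasl* (17.5 ± 0.62 and 15.1 ± 1.26) did not pass the edgeR test themselves, though *Wasl* was lower with 3 alternatives (upper-quartile factors, total counts and protein-coding genes only). No pair passed after adjustment, and 0.0286 is the smallest p that 4 against 4 libraries can give. Adjusted over 5 pairs, a pair at that p can pass only if enough other pairs reach it too. The lack of a pass therefore does not show that these ratios were unchanged. *Actr3b*, the paralog of *Actr3*, had 0 to 4 counts per library and *Cttn*, that of *Hcls1*, 2 to 19, too few to place a ratio.

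**Figure D4:**
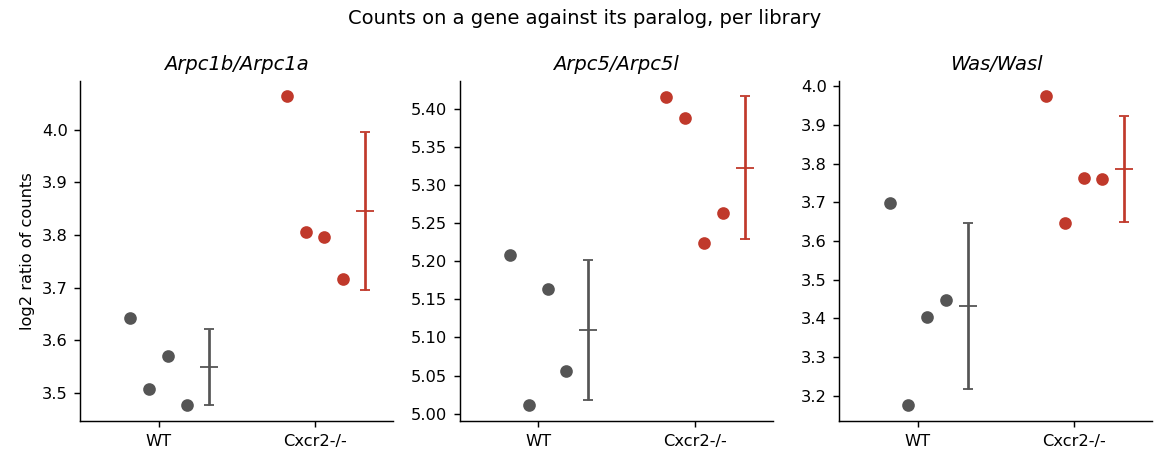
Log2 ratio of counts (vertical axes, not from 0) of *Arpc1b* to *Arpc1a*, *Arpc5* to *Arpc5l* and *Was* to *Wasl*, one point per library with the mean and SD to the right of each group. The *Cxcr2-/-* libraries lie above all WT libraries in the first pairs, *Arpc1b* to *Arpc1a* and *Arpc5* to *Arpc5l*, and overlap with them for *Was* to *Wasl*.

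Around these genes, 86 others of branched and linear actin assembly were listed by function, of which 81 could be tested. Of these 26 rose and 11 fell (all genes: 23.7% higher and 21.0% lower), with a median log2 fold change of 0.15. In the WAVE complex, which holds WAVE2 inactive until Rac binds, 2 of 8 genes rose and 1 fell, a share of rises near that over all genes. *Cyfip1*, the subunit that Rac binds, rose from 84.3 ± 4.11 to 150 ± 14.4 CPM (log2 fold change 0.83), and *Cyfip2* rose by 0.41 on the log2 scale. *Nckap1l*, the HEM1 scaffold of blood cells, fell from 916 ± 70.6 to 748 ± 76.1 CPM with overlap (log2 fold change -0.29, adjusted p = 0.0435), a call that was lost in 10 of 19 alternatives. *Wipf1*, whose product WIP protects WASP from degradation, fell from 440 ± 43.4 to 354 ± 23.6 CPM (log2 fold change -0.31, adjusted p = 0.0237), a call lost in 5 of 19.

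Of the partners that switch the activators on, *Rac2*, the main Rac of neutrophils, rose from 1210 ± 168 to 1892 ± 257 CPM (log2 fold change 0.65, adjusted p = 0.0020). *Cdc42*, which activates WASP, did not pass (675 ± 87.7 CPM in WT, 739 ± 56.1 CPM in *Cxcr2-/-* libraries). *Baiap2*, for the adaptor IRSp53 that joins Rac to WAVE2, fell from 17.9 ± 1.55 to 9.61 ± 0.978 CPM (log2 fold change -0.90).

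Among the other nucleation promoting factors 1 rose and 2 fell. *Washc1*, the WASH protein that activates the complex on endosomes, rose (log2 fold change 0.55), while *Jmy* fell from 16.0 ± 1.57 to 7.33 ± 2.82 CPM (-1.13) and *Whamm* fell by 0.38 on the log2 scale. The call of *Washc1* was lost with the non-neutrophil score or the share of pairs on no gene as covariate (log2 fold change 0.18 with the latter), and that of *Jmy* with the latter. In the WASH complex 3 of 5 genes rose (*Washc1*, *Washc3* and *Washc5*), with *Washc3* at a log2 fold change of 0.89, and *Washc2* fell (-0.59). Of 10 genes whose products restrain the complex or take branches apart, 2 rose and 1 fell. *Coro7*, a coronin of the Golgi, rose from 114 ± 7.53 to 222 ± 37.3 CPM (log2 fold change 0.96), and *Coro1c* fell by 0.23 on the log2 scale (adjusted p = 0.0262), a call lost in 9 of 19 alternatives.

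Other genes feed and trim the network. Of 20 capping, severing and monomer-binding genes 11 rose and 2 fell, with a median log2 fold change of 0.46. *Cfl1* (cofilin, which severs old filaments) rose from 587 ± 100 to 1050 ± 111 CPM, and its relative *Dstn* rose from 223 ± 19.96 to 443 ± 53.1 CPM. *Pfn1* (profilin, which loads actin monomers) rose from 880 ± 136 to 1519 ± 264 CPM, and *Capg*, a capping protein, from 136 ± 12.3 to 275 ± 45.6 CPM. The largest rise was that of *Tmsb10*, for a thymosin that sequesters monomers, from 4.88 ± 1.05 to 14.9 ± 8.20 CPM (log2 fold change 1.60, adjusted p = 0.0013). *Ssh2*, a phosphatase that switches cofilin on, fell from 1475 ± 101 to 756 ± 16.8 CPM (log2 fold change -0.96). Of 10 formins, which build unbranched filaments, 4 rose and 1 fell, with *Daam1* at a log2 fold change of 0.53 and *Fhod1* at -0.68. Larger rises were those of the scarcer *Diaph3* (from 2.33 ± 0.489 to 6.36 ± 0.437 CPM, log2 fold change 1.44) and *Inf2* (1.08). *Actb* rose from 15377 ± 2004 to 20809 ± 2073 CPM (log2 fold change 0.44, adjusted p = 0.0256), a call lost in 8 of 19 alternatives, and *Actg1* did not pass (0.20, adjusted p = 0.174). With the share of pairs on no gene as covariate, 2 of the 20 capping, severing and monomer-binding genes were higher, and neither *Rac2* nor *Actb* passed.

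**Figure D5:**
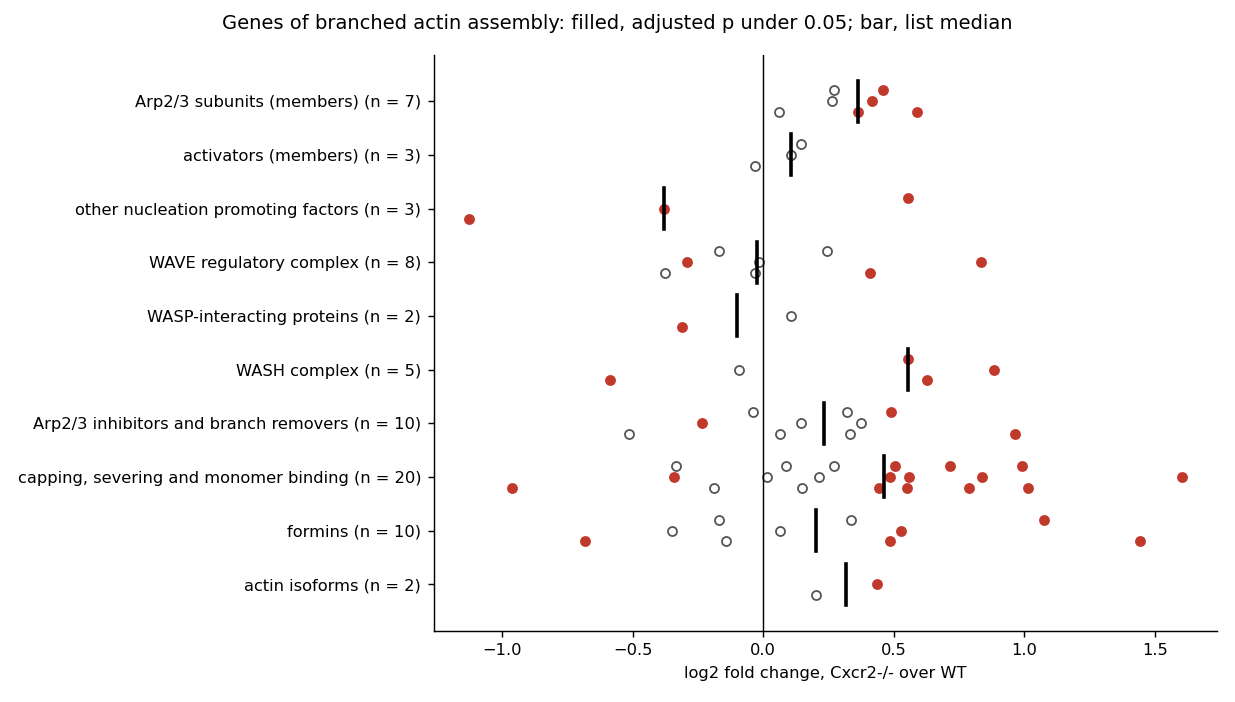
Log2 fold change of *Cxcr2-/-* over WT libraries (horizontal axis) of each gene tested, by functional list (1 list is not shown), filled where the adjusted p was under 0.05, with a bar at the median of each list. The medians are 0.36 for the Arp2/3 subunits, 0.11 for the activators and 0.46 for capping, severing and monomer binding, and genes of most lists lie on both sides of 0.

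Over the 8 libraries, the genes whose level followed the mean of the 7 subunits most closely, among 7020 abundant genes, were *Rtn3* (Pearson's r = 0.993), *Yeats4* (0.992), *Copz1* (0.991), *Pitpna* (0.990) and *Ppp1ca* (0.989). These values describe 8 points that share genotype, depth and the share of pairs on no gene.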

How the data were processed

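Spleen neutrophils of 4 WT and 4 *Cxcr2-/-* mice were profiled by RNAseq, 1 library per labelled replicate. After trimming and alignment to mm10 by STAR, the authors counted genes with HTSeq and deposited the raw counts. The library kit kept strand. The counting annotation's release is not given in the sources used here: GENCODE M21 (GRCm38), which gave symbols and positions, held 52133 of the 55414 identifiers. No 2 libraries of a group matched within counting error (chi-square of 23.9 to 99.0 per gene). The labels number replicates without naming the mouse. The paper gives 4 animals per group, so each library was taken as 1 mouse. The p-values measure the spread between these libraries, biological and technical together.

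Genes were tested in R 4.3.3 with edgeR 4.0.16 (quasi-likelihood test, TMM, filterByExpr, Benjamini-Hochberg adjustment over 16778 genes), called at an adjusted p under 0.05, and the steps were tested on simulated data. Paralog ratios were log2 of counts plus 0.5. Named genes were the 10 genes, the largest called change in each direction of each list at an average log2 CPM of at least 3, genes named by role, paralogs and close patterns; other list genes named were chosen after their values were seen. For 1 list no result is reported here. Members and lists were chosen with earlier results of these data known. The alternatives were DESeq2 1.42.0, other scalings, filters and covariates, a replicate block and each library left out; leaving out *Cxcr2-/-* replicates 3 and 4 together and another gene length were added after the data were seen.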

Additional observations from a re-analysis of the deposited data

How the results depend on the processing

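Of 190 values of the 10 genes' log2 fold changes (19 alternatives each), 160 kept their direction and side of the threshold, 16 no longer passed, 2 newly passed and 12 reversed, none of them for a gene that had passed. The count of genes called higher was 4 as reported, 3 with RLE factors, with protein-coding genes only or with the non-neutrophil score as covariate, 2 with upper-quartile factors, 0 with the share of pairs on no gene as covariate and 1 with at least 1.5-fold; leaving out each library in turn it ran from 2 to 6. Over all genes the share of pairs on no gene as covariate gave 1597 higher and 1486 lower, and at least 1.5-fold gave 2628 higher. Upper-quartile factors moved the median of all genes by -0.12 on the log2 scale, and 41.2% of calls were then higher, against 53.0%.

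With upper-quartile factors the log2 fold change reversed for *Arpc1a* (-0.058), *Wasf2* (-0.014) and *Arpc5l* (-0.054). With total counts it reversed for *Arpc1a* (-0.026) and *Arpc5l* (-0.021), and with protein-coding genes only for *Arpc1a* (-0.013) and *Arpc5l* (-0.0077). With the share of pairs on no gene as covariate it reversed for *Arpc1a* (-0.057), *Was* (-0.14), *Wasf2* (-0.13), *Arpc5l* (-0.018), *Cdc42* (-0.0069) and *Actg1* (-0.063), and with the non-neutrophil score for *Wasf2* (-0.023). Leaving out each library in turn, *Arpc1a* ran from -0.014 (without WT replicate 2, the reversal) to 0.095, and *Hcls1* from -0.115 to 0.034, reversing without WT replicate 1 (0.034) and without *Cxcr2-/-* replicate 4 (0.0026), as it did without *Cxcr2-/-* replicates 3 and 4 together (0.045). The cause was not tested.

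Same-numbered WT and *Cxcr2-/-* libraries are different mice, and their deviations from the group means correlated at -0.31 to 0.24, with 2 of 4 WT libraries closest to their own number, so the numbers were not taken as pairs. With the replicate block 4 of the 10 genes were higher, as without it. The paralog differences under the replicate block were 0.30 for *Arpc1b* over *Arpc1a* and 0.21 for *Arpc5* over *Arpc5l* (exact permutation p = 0.125 for each, the smallest possible). Leaving out each library in turn they ran from 0.22 to 0.34 and from 0.18 to 0.25 (exact permutation p = 0.0571, the smallest possible), so these p-values say nothing about stability. Depth did not limit the 10 genes, but *Actr3b* and *Cttn* had too few counts for a ratio.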
